A study of Caenorhabditis elegans with 12 samples.

Results

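In sorted BAG neurons, 62 genes had lower normalized read counts in every library from *arcp-1* mutants than in any library from controls. BAG neurons are a pair of ciliated sensory neurons in the head of *C. elegans* that detect CO2 and release glutamate and neuropeptides. ARCP-1 is an ankyrin-repeat scaffold protein found at the dendritic ending of BAG. NPR-1 is a neuropeptide receptor, and animals that lack it respond strongly to oxygen and aggregate. The *arcp-1* mutants (strain AX7207) carried *arcp-1(db1082)* together with *npr-1(ad609)*, and the controls (strain AX7210) carried *npr-1(ad609)* alone. Both strains therefore lacked functional *npr-1*, and both held the *ynIs64* transgene, in which the *flp-17* promoter drives GFP in BAG; every comparison is between animals with and without functional *arcp-1* in that background. The *db1082* allele came from a collection of mutants screened for aggregation behavior and affects both *arcp-1* transcripts. Each genotype had 6 biological replicates from day 1 adults kept at 20°C. A library was made from some 4000 sorted fluorescent events, and full-length cDNA was made by Smart-seq2.

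The genes were chosen by their values in these same libraries. A gene was included when its mean over the 6 control libraries was 20 or more normalized counts (reads divided by a scaling factor for the library) and its highest value in *arcp-1* mutants was below its lowest value in controls. Of the 22542 genes with normalized counts, 7143 had a control mean of 20 or more, and 62 of these, or 0.868%, met both conditions. The opposite pattern, with every *arcp-1* mutant library above every control library, was found for 137 of the 7328 genes with a mean of 20 or more in the mutants (1.87%). Because the rule used the difference between the genotypes, the differences below describe the selected genes and are not tested. In a limma fit over all 12096 genes tested, 40 genes (0.331%) were lower and 161 (1.33%) were higher in *arcp-1* mutants at an adjusted p threshold of 0.05. All 62 genes were among those tested, and 23 of them were called lower, which is 37.1% of the 62 genes and 57.5% of the 40 lower calls. Since the same values chose the genes and made the calls, nothing is read from that overlap, or from lower calls of the 62 genes within the lists below. Leaving out 1 library gave 20 to 62 lower calls. When replicate number was fitted as a block, 71 genes were called lower in place of 40, and 29 of the 62 in place of 23.

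The libraries differed in depth and in their content of cell type markers. The recovered reads per library ranged from 374550 to 8683395 in *arcp-1* mutants and from 540884 to 7594719 in controls, and 4 of the 12 libraries (*arcp-1* mutant replicates 3 and 4 and control replicates 1 and 5) had fewer than 1000000. A single read equaled 6.40, 6.13, 3.61 and 4.25 normalized counts in these 4 libraries, in that order, and 0.294 to 0.735 in the others. Low values in the 4 libraries therefore rest on few reads. The mutated gene, *arcp-1*, was present in both genotypes, at 704 to 4277 normalized counts in *arcp-1* mutants and 3288 to 12360 in controls. These ranges overlapped, so *arcp-1* was not one of the 62 genes, and replicate 1 was the lowest library of either genotype. The summed count of 5 BAG markers (*gcy-9*, *gcy-31*, *gcy-33*, *flp-17* and *ets-5*) ranged from 2323 to 14387 in *arcp-1* mutants and from 2880 to 11923 in controls, again lowest in replicate 1 of each genotype. The 7 body wall muscle markers summed to 27901 to 111631 in *arcp-1* mutants and 28677 to 104457 in controls, so transcripts of cells other than BAG were present in both genotypes. Over 20 lists of cell type markers, no tested marker was called lower in *arcp-1* mutants and 1, a body wall muscle gene, was called higher. Medians of the sums differed in both directions. The ASI sum had a median of 37.6 in *arcp-1* mutants and 165.5 in controls. In the same order, medians were 338 and 643 for URX, AQR and PQR, and 1075 and 1537 for germline. They were 441 and 113 for touch receptor neurons, 24967 and 19930 for hypodermis, and 87.8 and 59.6 for AFD. In bulk samples such as these, fewer cells of a type and less RNA per cell cannot be told apart.

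**Figure D1:**
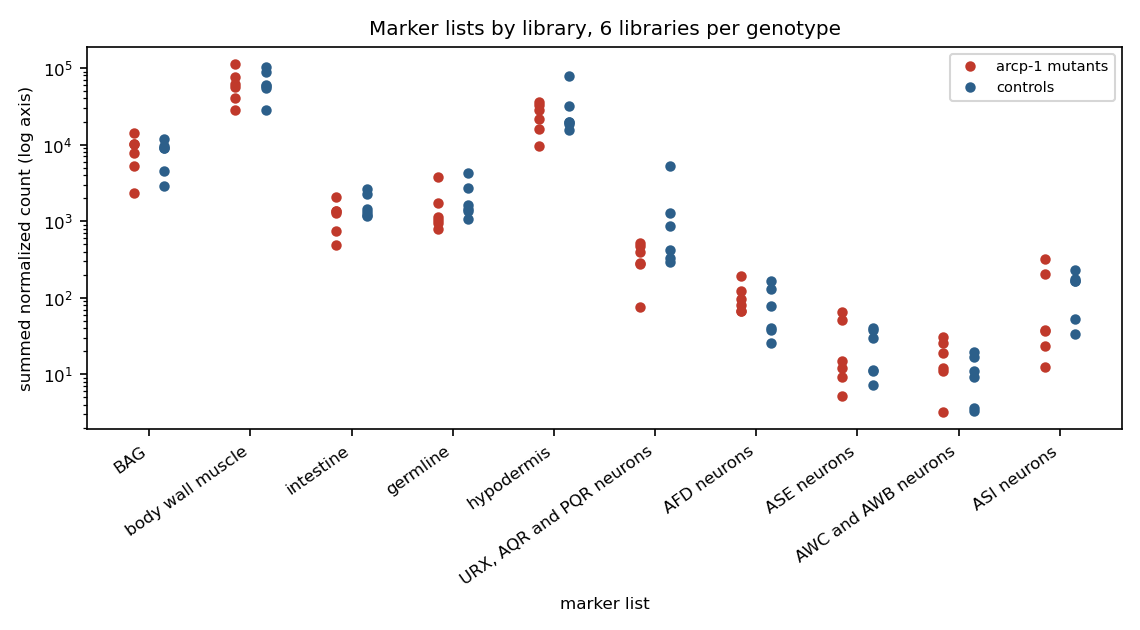
Summed normalized counts (log axis) of 10 lists of cell type markers in the 6 *arcp-1* mutant libraries (left of each pair) and the 6 control libraries (right), 1 point per library. The ranges of the genotypes overlap for all 10 lists, and the BAG sum lies between 2323 and 14387 in *arcp-1* mutants and between 2880 and 11923 in controls.

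The control means of the 62 genes ranged from 20.03 to 2085 normalized counts with a median of 112, and 33 genes had a control mean of 100 or more, 10 of them 500 or more. The mean in *arcp-1* mutants was between 0.464% and 80.6% of the control mean, with a median of 49.7%. The lowest value was that of *pqn-8*, which was 1.88% without control replicate 1. The percentage was below 25% for 15 genes, 25 to 50% for 16 and 50% or more for 31. The genes with a control mean of 100 or more had a median of 57.7% of control, and the 29 genes below that level had a median of 37.6%. Fold changes were fitted to log2(normalized count + 1), where the added count shrinks those of sparse genes. The fold changes of *arcp-1* mutants over controls ranged from -4.44 to -0.30 with a median of -1.08, against a median of -0.02 over all genes tested. Within single mutant libraries, the median gene of the 62 stood at 33.2, 53.6, 41.3, 47.6, 52.2 and 50.9% of its control mean in replicates 1 to 6. Replicate 1, the lowest in BAG markers and also the deepest, was the lowest of these libraries, and the part of either in the values was not tested.

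**Figure D2:**
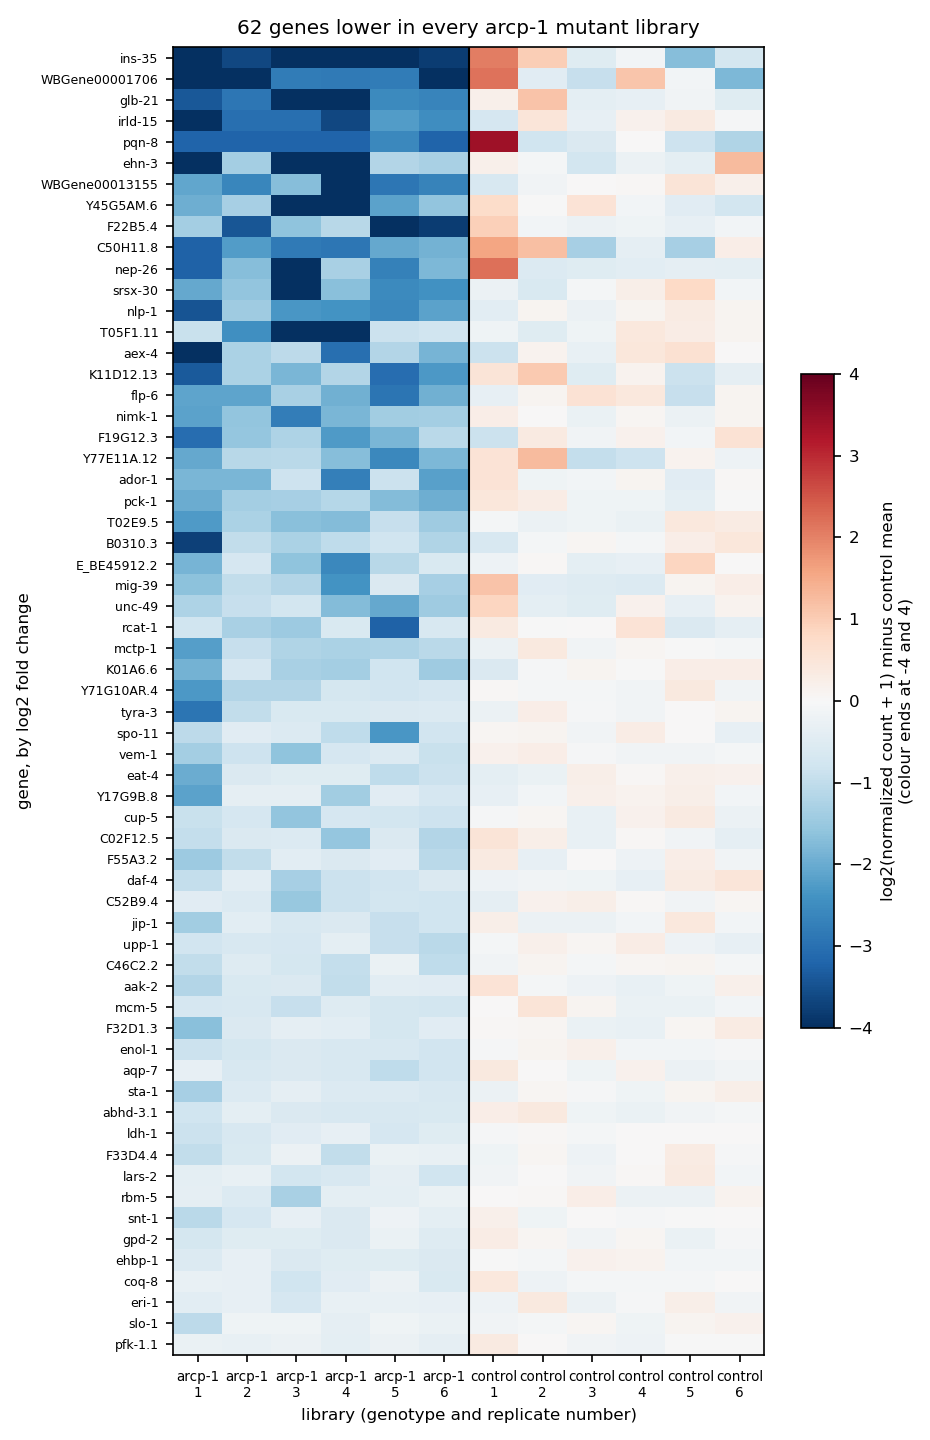
Values of the 62 genes (rows, the most negative fold change at the top) in 6 *arcp-1* mutant libraries (left) and 6 control libraries (right), as log2(normalized count + 1) minus the gene's control mean, with colors ending at -4 and 4. The fold changes run from -4.44 for *ins-35* at the top to -0.30 for *pfk-1.1* at the bottom, and control replicate 1 stands above the other controls for several genes of low count near the top.

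Of the 62 genes, 5 encode enzymes of central carbon metabolism. Glycolysis converts glucose to pyruvate, which lactate dehydrogenase can reduce to lactate, and gluconeogenesis runs the path in reverse through phosphoenolpyruvate carboxykinase. *pck-1* encodes such a carboxykinase and had 322 to 576 normalized counts (median 443) in *arcp-1* mutants and 981 to 1754 (median 1194) in controls. The highest mutant library was thus well below the lowest control library, and the mutant mean was 33.6% of the control mean (log2 fold change -1.58, SE 0.20). *enol-1* (enolase), the gene with the highest control mean, had 1157 to 1389 normalized counts (median 1311) in *arcp-1* mutants and 1926 to 2405 (median 2011) in controls (log2 fold change -0.69, SE 0.15). Both groups were tight, with SDs of 86.4 around 1288 counts in *arcp-1* mutants and 189 around 2085 counts in controls (n = 6 each).

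The 3 other enzymes differed less. *ldh-1*, the lactate dehydrogenase, measured 403 to 582 normalized counts (median 495) in *arcp-1* mutants and 695 to 760.0 (median 740.3) in controls (log2 fold change -0.57, SE 0.14). *gpd-2*, a glyceraldehyde-3-phosphate dehydrogenase, measured 969.7 to 1293 normalized counts (median 1102) in *arcp-1* mutants and 1304 to 1949 (median 1585) in controls (log2 fold change -0.51, SE 0.16). For *gpd-2* the genotypes only just failed to overlap, as its lowest control library was 1.008 times its highest mutant library. Its exons overlap those of *mai-1* in the annotation, and reads were counted without regard to strand. *pfk-1.1*, a phosphofructokinase, had the smallest difference of the 62 genes, with 429 to 480.2 normalized counts (median 467) in *arcp-1* mutants and 496 to 722 (median 562) in controls (log2 fold change -0.30, SE 0.14).

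Of the 50 listed genes of glycolysis, gluconeogenesis, pyruvate metabolism and the citric acid cycle, all tested, 2 were called lower (*pck-1* and *enol-1*) and none higher by limma at an adjusted p of 0.05. The list had 32 negative fold changes and a median of -0.11, against -0.02 over all genes tested. Without the 5 selected genes, 27 of 45 were negative, the median was -0.07 and none was called. The summed count of the list was 24070 ± 1972 in *arcp-1* mutants and 28416 ± 4985 in controls (SD, n = 6 each), with ranges of 21859 to 26861 in *arcp-1* mutants and 23615 to 37777 in controls that overlapped. The median of the list moved with the libraries used. It was -0.03 without control replicate 1, and -0.001 over the libraries with more than 1000000 reads, so no direction is given for the list as a whole. *pck-2*, another phosphoenolpyruvate carboxykinase of the list, had a median of 3202 normalized counts in *arcp-1* mutants and 2333 in controls and was not called.

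**Figure D3:**
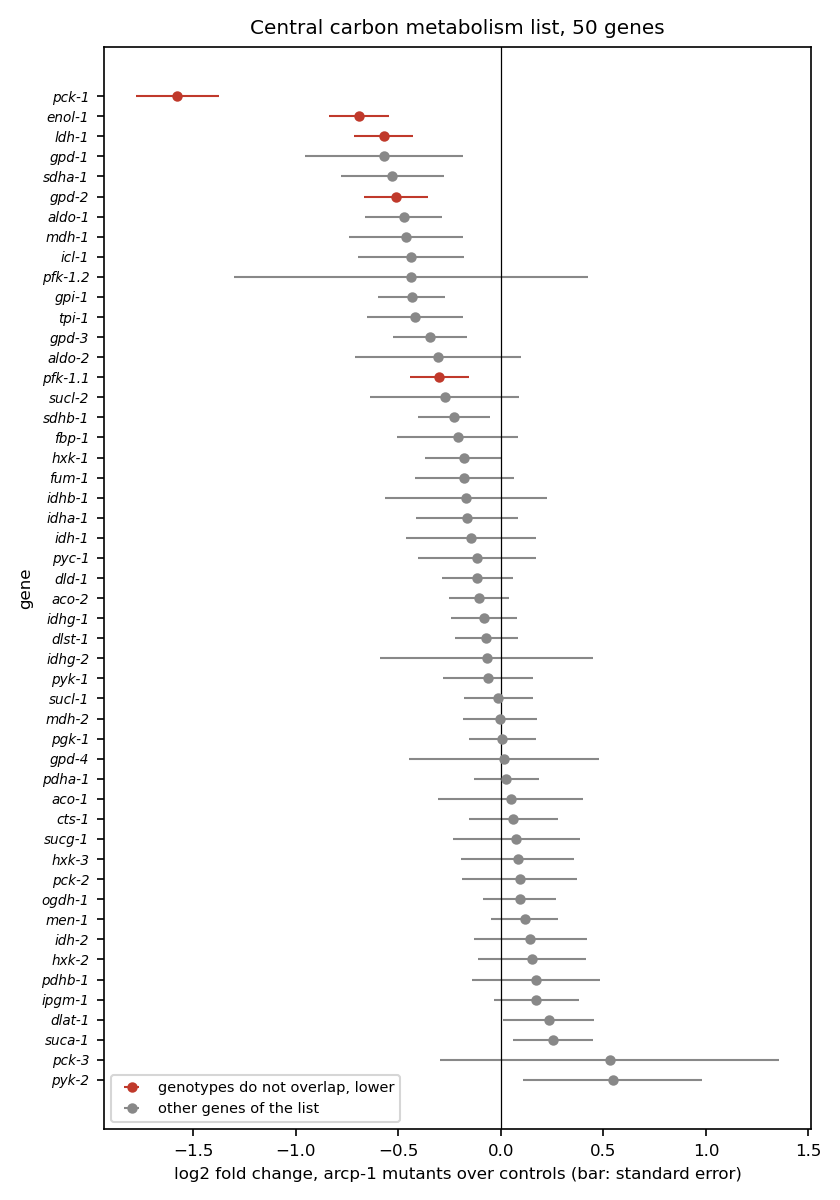
Log2 fold changes of *arcp-1* mutants over controls (points) with their standard errors (bars) for the 50 genes of the central carbon metabolism list, sorted by fold change. The 5 genes whose genotypes did not overlap (red) lie between -1.58 (*pck-1*) and -0.30 (*pfk-1.1*), and several other genes (grey) lie in the same range with wider errors.

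Another 2 of the 62 genes encode kinases of the AMP-activated protein kinase family, whose members act in energy sensing and cell polarity. *nimk-1* had 25.6 to 69.3 normalized counts (median 54.3) in *arcp-1* mutants and 148 to 213 (median 185) in controls (log2 fold change -1.84, SE 0.25). Its lowest control library was 2.13 times its highest mutant library, one of 8 genes with a ratio of 2 or more. *aak-2*, a catalytic subunit of AMP-activated protein kinase, had 37.4 to 63.7 normalized counts (median 56.7) in *arcp-1* mutants and 69.2 to 126.3 (median 78.9) in controls (log2 fold change -0.70, SE 0.23), and shares exonic sequence with *mec-4*, a touch receptor channel gene. Its highest control value was that of control replicate 1, where 4 touch receptor markers summed to 6818, against 67.2 to 219 in the other controls and 54.7 to 1388 in *arcp-1* mutants, and their part in it was not tested. Among the 14 listed kinases and subunits of this family, *nimk-1* was called lower, none was called higher, and the median fold change was -0.26 (9 negative). Over the 12 genes other than *nimk-1* and *aak-2* the median was -0.18, and none was called.

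The 62 genes included 3 neuropeptide genes. Neuropeptides are cut from precursor proteins and released from dense core vesicles, and in *C. elegans* they fall into FMRFamide-like (*flp*), insulin-like (*ins*) and other (*nlp*) genes. *nlp-1*, known in *C. elegans* from the AWC olfactory neurons, had 143 to 594 normalized counts (median 307) in *arcp-1* mutants and 1188 to 1996 (median 1695) in controls. Its lowest control library had 2.00 times the counts of its highest mutant library, its mutant mean was 20.5% of the control mean, and it showed the most negative fold change among the 10 genes with a control mean of 500 or more (log2 fold change -2.38, SE 0.27). Per length it was also the most abundant of the 62 genes, with 277 TPM in *arcp-1* mutants and 1385 ± 360 TPM in controls (SD, n = 6), which placed it at rank 79 among all genes in the control mean. The next in TPM were *enol-1* and *gpd-2*, at 791 ± 125 and 785 ± 64.4 TPM in controls, which did not differ beyond their spread.

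*flp-6*, an FMRFamide-like peptide gene known in *C. elegans* from ASE, AFD and other sensory neurons, had 11.9 to 38.4 normalized counts (median 23.1) in *arcp-1* mutants and 51.0 to 146 (median 105) in controls (log2 fold change -2.05, SE 0.32). *ins-35*, an insulin-like peptide gene, had 0 to 1.47 normalized counts (median 0.285) in *arcp-1* mutants and 8.49 to 126.3 (median 24.3) in controls, and at most 3 reads in any mutant library. It was represented by 6 reads over all mutant libraries and 341 reads over all control libraries, a depth-corrected ratio of 49.6 of controls over *arcp-1* mutants (exact 95% interval 22.6 to 136). The interval covers counting error only, and that it lies above 1 was set by the rule that chose the gene. Control replicate 1 held the highest value of *ins-35*, and the mutant mean was 1.24% of control with that library and 2.00% without it.

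Markers of the sensory neurons named above for these peptides overlapped between the genotypes. The summed count of 5 AWC and AWB markers was 3.24 to 30.6 in *arcp-1* mutants and 3.35 to 19.3 in controls, and the defining markers *str-2*, *srsx-3* and *ceh-36* had a median of at most 3 reads per library. The 6 ASE markers summed to 5.15 to 64.9 in *arcp-1* mutants and 7.22 to 40.0 in controls, with *che-1*, *gcy-5* and *gcy-7* at a median of at most 3 reads, and 4 AFD markers summed to 66.8 to 192 in *arcp-1* mutants and 25.4 to 166 in controls. The AWC, ASE and AFD part in the values of *nlp-1* and *flp-6* was not tested. Of the 91 neuropeptide genes tested, limma called lower only *nlp-1*, *flp-6* and *ins-35* and called higher *nlp-58* and *ins-1*, and the median fold change was -0.12. *nlp-58* averaged 2288 ± 761 normalized counts in *arcp-1* mutants and 344 ± 79.7 in controls (SD, n = 6 each; log2 fold change 2.67, SE 0.27, limma adjusted p = 3.1e-05). *ins-1*, another insulin-like gene, averaged 209 ± 86.4 in *arcp-1* mutants and 70.2 ± 30.3 in controls (log2 fold change 1.57, limma adjusted p = 0.047). *nlp-58* was called under all 24 alternative settings and *ins-1* under 7 of 24.

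*nlp-1* has a neighbor among the 62 genes. *aex-4*, which encodes a SNAP25-like protein for vesicle fusion known in *C. elegans* from the intestine, starts 835 bp downstream of the end of *nlp-1* on chromosome X, on the same strand (WS255, X:3729281-3731960, against X:3727553-3728446 for *nlp-1*). It had 2.94 to 51.2 normalized counts (median 36.4) in *arcp-1* mutants and 57.8 to 161 (median 111) in controls (log2 fold change -2.18, SE 0.54). Both genes were lowest in replicate 1 of each genotype. The 12 intestine markers summed to 489 to 2074 in *arcp-1* mutants and 1151 to 2669 in controls and overlapped. No other pair of the 62 genes lay within 10 kb of each other.

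Neurons load glutamate into synaptic vesicles through a vesicular transporter, and synaptotagmin triggers their fusion when calcium enters. *eat-4*, the vesicular glutamate transporter, which BAG is known to express, had 179 to 508 normalized counts (median 432) in *arcp-1* mutants and 545 to 829.7 (median 767) in controls (log2 fold change -0.90, SE 0.24). *snt-1*, a synaptotagmin, had 189.7 to 351 normalized counts (median 289) in *arcp-1* mutants and 355 to 469 (median 401) in controls (log2 fold change -0.54, SE 0.17). The genotypes were separated by little in *snt-1*, and replicate 1 was the lowest mutant library for both genes.

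*slo-1*, a calcium-activated potassium channel that limits transmitter release, had 216 to 397 normalized counts (median 379) in *arcp-1* mutants and 398 to 501 (median 449) in controls (log2 fold change -0.36, SE 0.18). It had the narrowest gap of the 62 genes, 396.8 in the highest mutant library against 398.4 in the lowest control library, and an *arcp-1* mutant value in replicate 1 far below the other 5. *unc-49*, a GABA-gated chloride channel known from body wall muscle, had 9.67 to 25.6 normalized counts (median 16.5) in *arcp-1* mutants and 30.6 to 79.4 (median 40.9) in controls (log2 fold change -1.35, SE 0.35). The body wall muscle sum overlapped between the genotypes. *mctp-1*, a C2 domain protein of the membrane, had 12.4 to 30.9 normalized counts (median 25.3) in *arcp-1* mutants and 50.5 to 79.1 (median 58.1) in controls (log2 fold change -1.31, SE 0.28). Among 166 ion channel genes tested, which include *slo-1* and *unc-49*, limma called *twk-11* lower (also under 13 of 23 alternative settings) and 7 genes higher, and neither *slo-1* nor *unc-49* was called.

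**Figure D4:**
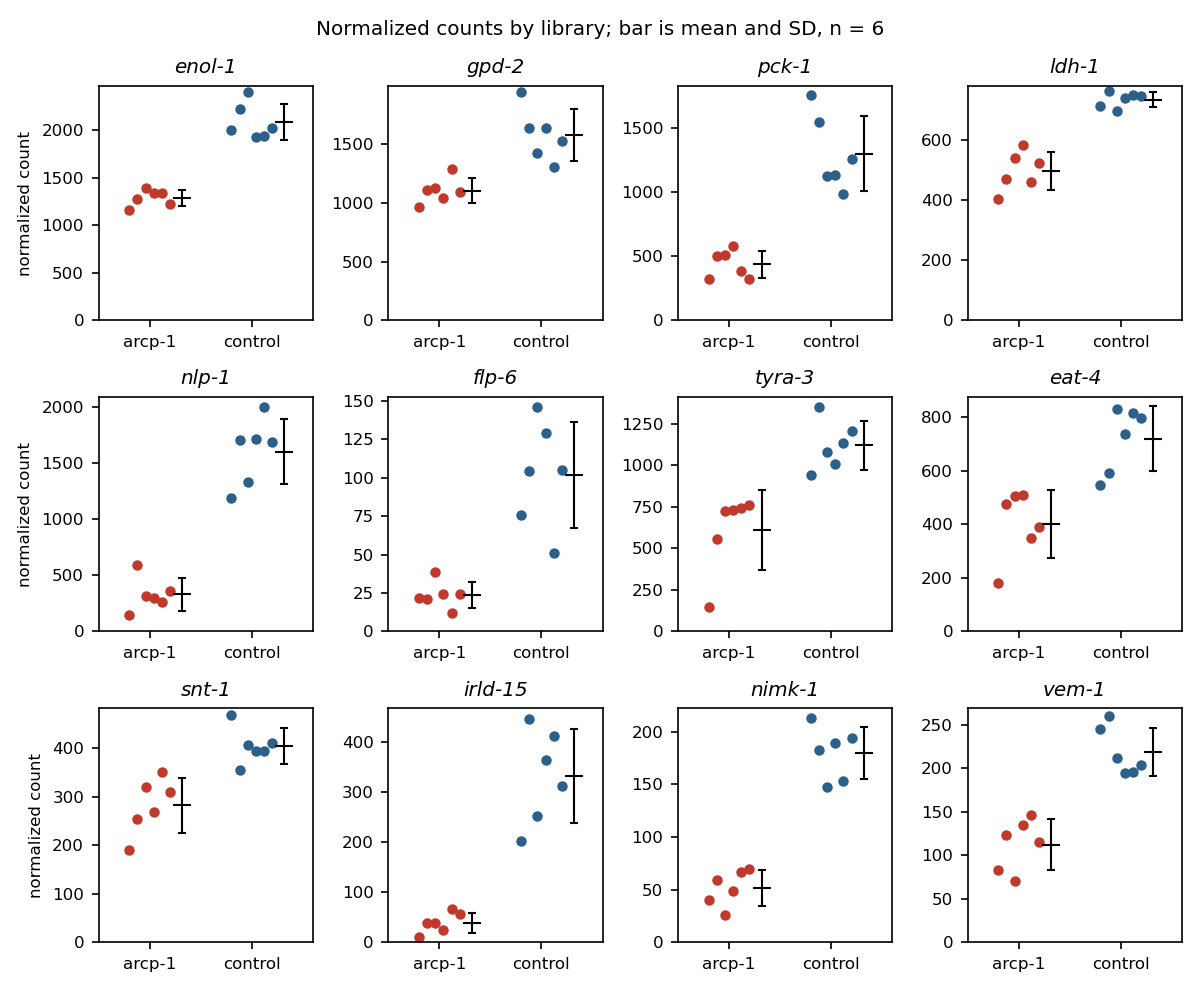
Normalized counts of 12 of the 62 genes in each library, *arcp-1* mutants on the left (red) and controls on the right (blue), with the mean and SD of 6 libraries beside the points and every axis starting at 0. In each panel all 6 mutant points lie below all 6 control points, with *nlp-1*, *irld-15*, *nimk-1* and *pck-1* widely apart and *gpd-2* and *snt-1* nearly touching.

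Receptors among the 62 genes had control means of 22.7 (*srsx-30*) to 1122 normalized counts (*tyra-3*). *tyra-3*, a tyramine and octopamine receptor known in *C. elegans* from BAG, where it acts in food leaving, had 145 to 762 normalized counts (median 726) in *arcp-1* mutants and 942 to 1352 (median 1109) in controls (log2 fold change -1.05, SE 0.34). Its lowest mutant value came from replicate 1, and its other 5 mutant libraries held 559.6 to 762. *daf-4*, a type II receptor for TGF-beta ligands, had 70.4 to 134 normalized counts (median 101) in *arcp-1* mutants and 143 to 251 (median 161) in controls (log2 fold change -0.82, SE 0.21), and *ador-1*, named as a relative of adenosine receptors, had 6.13 to 25.6 normalized counts (median 12.4) in *arcp-1* mutants and 33.97 to 68.6 (median 45.7) in controls. *srsx-30*, a G protein-coupled chemoreceptor, had 0 to 6.62 normalized counts (median 3.82) in *arcp-1* mutants and 13.9 to 38.2 (median 20.3) in controls (log2 fold change -2.46, SE 0.54). It had 0 and 1 reads in *arcp-1* mutant replicates 3 and 4, and 5 and 9 reads in control replicates 1 and 5. Without control replicate 5 it did not meet the rule. It was the single lower call among 64 chemoreceptors tested. The 63 others held no lower call and the 2 higher calls *sre-4* and *srv-1*, which were called under 12 and 10 of 23 alternative settings.

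*irld-15* belongs to a nematode family with the ligand-binding L domain of insulin and EGF receptors. It had 11.2 to 66.6 normalized counts (median 38.3) in *arcp-1* mutants and 202 to 445 (median 337) in controls, the most negative fold change among genes with a control mean of 100 or more (log2 fold change -3.19, SE 0.36). Its lowest control library was 3.04 times its highest mutant library, and the mutant mean was 11.8% of the control mean. Of 5 *irld* genes tested, *irld-15* was called lower, and among the 4 others *irld-2* was called higher and none lower. *irld-2* averaged 153 ± 101 normalized counts in *arcp-1* mutants and 30.8 ± 13.5 in controls (SD, n = 6 each; log2 fold change 2.09, limma adjusted p = 0.026) and was called under 14 of 23 alternative settings. *vem-1*, a membrane protein that in *C. elegans* acts with the netrin receptor UNC-40 in axon guidance, had 70.4 to 147 normalized counts (median 119.2) in *arcp-1* mutants and 195 to 259.7 (median 208) in controls (log2 fold change -0.99, SE 0.21). *glb-21*, a globin gene, had 0 to 3.98 normalized counts (median 2.35) in *arcp-1* mutants and 19.7 to 63.3 (median 23.7) in controls, a gap of 4.94 times between the highest mutant and the lowest control library.

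Several genes act in signaling, trafficking and the nucleus. *sta-1*, a STAT transcription factor, had 108 to 211 normalized counts (median 184) in *arcp-1* mutants and 231 to 317 (median 273) in controls, and *jip-1*, a scaffold for JNK signaling and kinesin cargo, had 86.5 to 169 normalized counts (median 140.1) in *arcp-1* mutants and 193 to 310.0 (median 215) in controls. Their fold changes were moderate (-0.66 for *sta-1* and -0.79 for *jip-1*). *cup-5*, a mucolipin channel of the lysosome, had 19.2 to 36.8 normalized counts (median 34.6) in *arcp-1* mutants and 48.3 to 76.4 (median 60.3) in controls, and *ehbp-1*, which acts in endocytic recycling, had 154 to 183 normalized counts (median 160.2) in *arcp-1* mutants and 212 to 260.2 (median 225) in controls. *aqp-7*, an aquaglyceroporin, had 323 to 527 normalized counts (median 419.8) in *arcp-1* mutants and 556 to 855 (median 631) in controls (log2 fold change -0.66, SE 0.17), while 2 other genes of the 140 transporter genes tested, *kcc-2* and *mrp-2*, were called higher and none lower, *kcc-2* under 18 and *mrp-2* under all of 24 alternative settings.

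*mcm-5*, a subunit of the replicative helicase, had 32 to 42.9 normalized counts (median 37.6) in *arcp-1* mutants and 50.7 to 88.7 (median 59.2) in controls, and *spo-11*, the enzyme that makes meiotic double-strand breaks, had 6.83 to 27.2 normalized counts (median 20.1) in *arcp-1* mutants and 30.2 to 46.5 (median 39.0) in controls. The 9 germline markers summed to 794 to 3801 in *arcp-1* mutants and 1079 to 4198 in controls and overlapped, and the part of germline RNA in these genes was not tested. *eri-1*, an exonuclease that restrains RNA interference, had 51.2 to 67.4 normalized counts (median 66.1) in *arcp-1* mutants and 70.1 to 108 (median 78.0) in controls, the lone gene of the 62 among 52 small RNA factors tested, none of which was called. *coq-8*, a ubiquinone biosynthesis gene, had 38.4 to 56.9 normalized counts (median 51.3) in *arcp-1* mutants and 58.5 to 90.2 (median 63.9) in controls, and *lars-2*, a mitochondrial leucyl-tRNA synthetase, had 49.96 to 69.9 normalized counts (median 60.4) in *arcp-1* mutants and 77.7 to 110.4 (median 83.6) in controls. *upp-1*, a uridine phosphorylase, had 52.4 to 85.8 normalized counts (median 67.7) in *arcp-1* mutants and 88.9 to 138 (median 111) in controls. Control means of these 6 genes were 1.33-fold (*eri-1*) to 1.95-fold (*spo-11*) those of *arcp-1* mutants.

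Genes known by a sequence name or by an identifier made up another set. Of the 62 genes, 60 were protein coding, some carried a sequence name only, and 2 (WBGene00001706 and WBGene00013155) carried no name in the files. Per length, *C46C2.2* was the most abundant of those with a sequence name, at 241 TPM in controls, and it had 359 to 611 normalized counts (median 414) in *arcp-1* mutants and 657 to 789.8 (median 737) in controls (log2 fold change -0.73, SE 0.17). *K11D12.13* had 12.6 to 61.3 normalized counts (median 32.9) in *arcp-1* mutants and 76.4 to 292 (median 131) in controls (log2 fold change -2.17, SE 0.42), and *C50H11.8* had 9.41 to 25.8 normalized counts (median 16.3) in *arcp-1* mutants and 37.9 to 292 (median 96.7) in controls (log2 fold change -2.52, SE 0.49). *T02E9.5* had 25.6 to 65.4 normalized counts (median 42.4) in *arcp-1* mutants and 104 to 169.8 (median 115) in controls (log2 fold change -1.55, SE 0.25). The spread among controls was wide in *K11D12.13* and *C50H11.8*, whose highest control libraries both reached 292, and narrower in *T02E9.5*. On chromosome III, *mig-39*, named for a cell migration phenotype, had 18.4 to 67.1 normalized counts (median 42.1) in *arcp-1* mutants and 68.9 to 224 (median 91.9) in controls, and *E_BE45912.2* had 6.13 to 26.6 normalized counts (median 15.8) in *arcp-1* mutants and 31.01 to 76.4 (median 38.9) in controls.

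Other genes, given by their log2 fold change, were *F22B5.4* (-2.56), *F19G12.3* (-1.84), *Y71G10AR.4* (-1.12), *Y77E11A.12* (-1.72), *B0310.3* (-1.50), *K01A6.6* (-1.24), *Y17G9B.8* (-0.90), *C02F12.5* (-0.89), *F55A3.2* (-0.82), *C52B9.4* (-0.81), *F32D1.3* (-0.70), *F33D4.4* (-0.56), *abhd-3.1* (-0.60) and the RNA-binding gene *rbm-5* (-0.54). *F22B5.4* was the lowest of these and *rbm-5* the highest. The last were WBGene00001706 (-4.05), *pqn-8* (-3.11), which encodes a glutamine- and asparagine-rich protein, the zinc finger gene *ehn-3* (-3.08), WBGene00013155 (-2.76), *Y45G5AM.6* (-2.70), *nep-26* (-2.48), a neprilysin-like gene, *T05F1.11* (-2.31) and *rcat-1* (-1.34). *pqn-8* had 1 read over all mutant libraries and 81 over all control libraries, 27 of them in control replicate 1. The depth-corrected ratio was 70.7 of controls over *arcp-1* mutants (exact 95% interval 12.3 to 2827, above 1 by the choice of the gene). The control mean of *pqn-8* reached 20 only with control replicate 1, which held 97.5 normalized counts against a control median of 4.77. Its mutant mean was 0.464% of the control mean with that library, 1.88% without it, and 0 without *arcp-1* mutant replicate 5, which held the 1 read. The mean of *nep-26* in *arcp-1* mutants was 12.3% of control with control replicate 1 and 23.8% without it, and that of WBGene00001706 was 4.36% with it and 7.20% without it. Without control replicate 1, the control means of *nep-26* (12.02), *pqn-8* (5.03) and *rcat-1* (18.98) were below 20, and the other 59 genes still met the rule. Markers of other cells were also high in control replicate 1: the hypodermis sum was 79235 (15618 to 32235 in the other controls), the URX, AQR and PQR sum 5234 (293 to 1279) and the pharyngeal muscle sum 1336 (208 to 311). Their part in the values of that library was not tested.

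The gap, given as the lowest control value over the highest mutant value, was below 1.1 for 23 genes and 1.5 or more for 15. Just inside were *slo-1* (1.004), *Y17G9B.8* (1.007) and *gpd-2* (1.008), and just outside were *C50F2.2* (0.995), *K07E3.1* (0.988) and *pqn-65* (0.987), with 19 genes between 0.95 and 1. For the control mean, *rcat-1* (20.03), *pqn-8* (20.4) and *T05F1.11* (21.01) were just inside, and *F47G3.1* (19.9), *efn-2* (17.7) and *Y49F6C.6* (16.6), which were separated between the genotypes as well, were just outside. The highest mutant value was in replicate 3 for 15 genes, replicate 5 for 14, replicate 2 for 13, replicate 4 for 10, replicate 6 for 8 and replicate 1 for 2. The lowest control value was in replicate 1 for 14 genes, replicates 3 and 4 for 12 each, replicate 5 for 11, replicate 6 for 7 and replicate 2 for 6, so that no single library set the gap for most genes. Leaving out 1 library gave 72 to 117 genes that met the rule, with 117 without control replicate 1 and 104 without *arcp-1* mutant replicate 5.

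**Figure D5:**
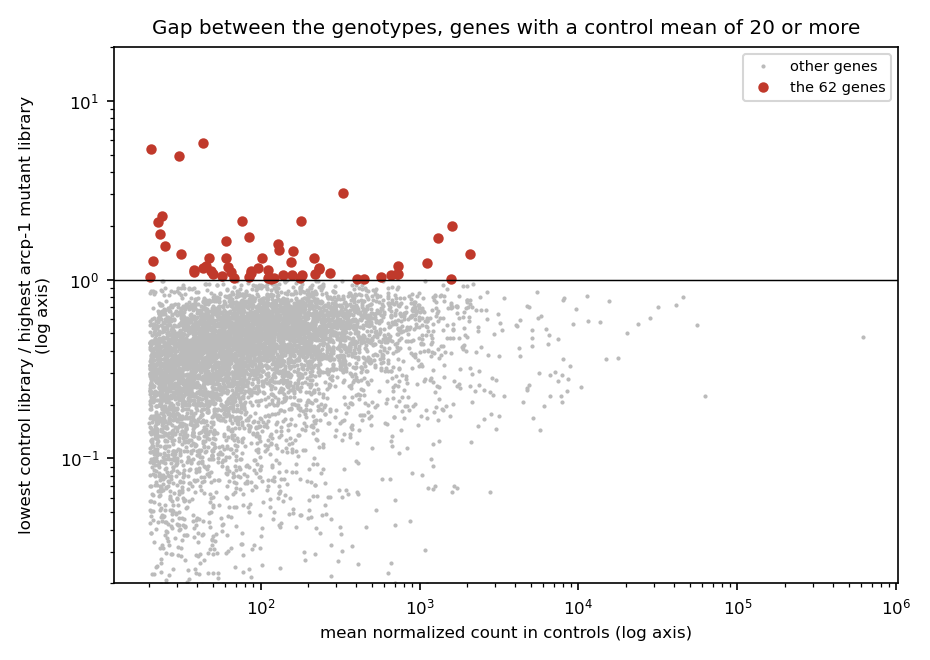
Ratio of the lowest control library to the highest *arcp-1* mutant library (log axis) against the mean normalized count in controls (log axis) for genes with a control mean of 20 or more; 270 of the 7143 genes, with a ratio under 0.02 or a library at 0, are not drawn. The 62 genes (red) lie above the line at 1 because the rule placed them there, 23 of them below 1.1, and *ins-35* (5.77), *pqn-8* (5.37) and *glb-21* (4.94) have the widest gaps. The gaps of *ins-35* and *pqn-8* rest on few reads. *ins-35* had 2 reads both in its highest mutant library and in its lowest control library, so its gap reflects library scaling. *pqn-8* had 1 read in its highest mutant library.

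Membership depended on the scaling of the libraries. Of the 62 genes, 43 kept the genotypes apart in TPM, 49 with reads scaled by TMM and 52 after quantile normalization, and 37 under all 3. *pck-1*, *enol-1*, *nlp-1*, *flp-6*, *irld-15* and *nimk-1* were among the 37, whereas *gpd-2*, *ldh-1*, *pfk-1.1*, *eat-4*, *tyra-3*, *slo-1* and *aqp-7* overlapped between the genotypes under at least 1 of these scalings. Libraries with more than 1000000 reads, 4 of each genotype and chosen after seeing the data, gave 229 genes that met the rule, of which 59 were among the 62. Genes separated over all 12 libraries stay separated over fewer of them. Only the control mean could therefore drop 1 of the 62, and nothing is read from the 59.

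The 62 genes lay on chromosomes I (5), II (9), III (11), IV (12), V (13) and X (12), and chromosome III, which carries *arcp-1*, held 17.7% of them and 16.4% of all genes tested. Chromosome X held 19.4% of them and 14.4% of the genes tested, and chromosome I 8.06% and 17.4%. None of the 154 genes tested within 500 kb of *arcp-1* was among the 62, and 3 of the 605 within 2000 kb were, namely *mcm-5*, *coq-8* and *daf-4*. Over the whole genome the 62 genes came from 12096 tested. At so low a share, neither an absence nor an excess near *arcp-1* is read from these counts. The median summed exon length was 1557.5 bases for the 62 genes and 1440 for all genes tested. Exons of 22 of the 62 genes overlapped those of another gene, among them *eat-4*, *slo-1*, *sta-1*, *cup-5*, *aex-4* and *spo-11*, and since counting ignored strand, reads from such neighbors cannot be told apart.

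The variation of the genes within genotypes was described after the genotype means were removed. Over the 12 libraries, the correlation of a gene with the BAG marker sum had a median of 0.01 (-0.84 to 0.80) over the 62 genes and -0.02 over all genes tested, and the correlation with recovered reads had a median of -0.08 over the 62 genes and 0.09 over all genes tested. Pairs of the 62 genes had a median correlation of 0.11 (1891 pairs), against 0.005 for pairs in a regular sample of the genes tested. The 10 pairs of the 5 central carbon enzymes had a median of 0.36. These values describe residuals that share library, depth and scaling, and the genes are not independent of one another.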

How the data were processed

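The libraries of 6 *arcp-1* mutant and 6 control replicates were compared. The authors removed ribosomal reads, mapped the rest to WS255 with STAR (mapping quality 20 or more) and used HTSeq for unstranded gene counts. The signal deposited by the authors is a normalized count, scaled by DESeq2 size factors. These values cover 22542 genes. TPM values, also deposited by the authors, cover 46766 genes. The authors' own table of the comparison (means, fold changes, test statistics) was used only for gene names and loci. Smart-seq2 carries no molecular identifiers, so intervals cover counting error only.

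Reads were recovered from the normalized counts, 100% of which were whole multiples (tolerance 0.0001) of the smallest value above 0 in their library. Log2(normalized count + 1) was fitted with limma 3.58.1 in R 4.3.3 (lmFit, eBayes with trend) over the 12 libraries. The 12096 genes tested had 1 CPM or more in 6 libraries, with Benjamini-Hochberg adjustment over all of them at 0.05. The alternatives, including edgeR 4.0.16 and DESeq2 1.42.0 on recovered reads, are in the closing section. The limma fit was also run on simulated counts, drawn independently for each library and without pairing or differences in marker content. These settings differ from the data, and nothing is read from that run here. Replicate numbers are from the labels. Same-numbered libraries deviated together (correlations of 0.20 to 0.43 in 6 of 6 pairs). Pairs with different numbers ranged from -0.41 to 0.36, and 9 of the 12 libraries correlated best with their own number. The numbers were taken to pair the libraries only in the alternative with a replicate block. The main fit used genotype alone, so its standard errors and calls do not use the pairing.

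The genes and the lists were chosen with earlier results of these data known. The homeobox, ion channel and small RNA lists were corrected after values had been seen, by removing genes that do not belong to them. Of 22 lists of pathway or family genes, the 14 that held none of the 62 genes were fatty acid and lipid metabolism, cGMP signalling, gap junctions, intraflagellar transport, neuropeptide receptors, nuclear hormone receptors, collagens, C-type lectins, detoxification enzymes, F-box and MATH/BTB proteins, heat shock proteins, histones, insulin signalling and homeobox factors. Values were given for genes in a list with at least 1 of the 62, the 10 highest control means, the 10 most negative fold changes at a control mean of 100 or more, genes at the edges of the rule, on chromosome III or within 10 kb of another, and others chosen after their values were seen.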

Additional observations from a re-analysis of the deposited data

Results flagged for a closer look

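In 21 of 124 groups of 6 libraries (62 genes in 2 genotypes), the highest or lowest library stood apart from the nearest other by more than Dixon's critical share of the group's range. Chance flags about 1 in 20 groups of normally distributed values. These are counts of genes chosen by the same values, so no excess of flags is read. Groups were flagged most often for control replicate 1 (7 genes), *arcp-1* mutant replicate 1 (5), and *arcp-1* mutant replicate 3 and control replicate 5 (3 each). In normalized counts, *arcp-1* mutant replicate 1 was low for *tyra-3* (145), *slo-1* (216), *F32D1.3* (48.2), *B0310.3* (3.82) and *mctp-1* (12.4), and *arcp-1* mutant replicate 3 was low for *rbm-5* (70.4), *eri-1* (51.2) and *cup-5* (19.2). *pqn-8* had 0.569 in *arcp-1* mutant replicate 5, a single read, and 0 in the other 5 mutant libraries. Control replicate 1 was high for *pfk-1.1* (722), *mig-39* (224), *F22B5.4* (155), *coq-8* (90.2), *unc-49* (79.4), *nep-26* (79.4) and *pqn-8* (97.5). This library also had the highest control sums of hypodermis (79235), touch receptor (6818), URX, AQR and PQR (5234) and pharyngeal muscle (1336) markers. Control replicate 5 was high for *Y71G10AR.4* (208), *lars-2* (110.4) and *E_BE45912.2* (76.4), control replicate 6 for *ehn-3* (68.9) and control replicate 2 for *glb-21* (63.3).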

How the results depend on the processing

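No fold change of the 62 genes changed sign, which the choice of genes set in advance wherever the same normalized counts were used. Nothing is read from that. Of 1451 values under the alternatives, 1430 moved by less than 1 SD between replicates and 21 by more. The counts moved further. The lower calls over all genes (40) were 26 with a pseudocount of 0.1, 25 without the filter on low counts, 17 when a mean of 100 normalized counts was required, 133 with arrayWeights, 105 with DESeq2, 71 with the replicate block (29 shared with the 40), 20 to 62 when 1 library was left out (62 without *arcp-1* mutant replicate 1, 20 without control replicate 4 or 6), and 19 over libraries with more than 1000000 reads, an alternative chosen after seeing the data. In the same order of settings, the 62 genes called (23) numbered 14 at a mean of at least 100, 41 with arrayWeights, 42 with DESeq2, 15 to 29 with 1 library left out (15 without control replicate 2) and 12 over the deeper libraries, and they were 29 with the replicate block. Listed genes outside the 62 that were called in either direction (15) numbered 9 with a pseudocount of 0.1, 8 at a mean of at least 100, 39 with arrayWeights, 28 with DESeq2, 26 with the replicate block, 9 to 28 with 1 library left out (28 without *arcp-1* mutant replicate 1) and 8 over the deeper libraries. Genes that met the rule (62) numbered 33 at a control mean of at least 100, 72 to 117 with 1 library left out, and 229 over the deeper libraries, where 4 libraries against 4 separate more readily. The cause of the other differences was not tested.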
